A study of Zea mays with 4 samples.

Results

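The regions described here are pairs of neighbouring CPP2 binding peaks whose summits stood exactly 54, 125, 126, 154 or 155 bp apart. CPP2 (Zm00001d031008) is a maize transcription factor. Its binding was read by DAP-seq (DNA affinity purification followed by sequencing), in which a Halo-tagged protein made in wheat germ extract pulls fragments out of a library of purified genomic DNA. All 4 factors of the study, CPP2, C3H23 (Zm00001d008323), OBF4 (Zm00001d012553) and THX20 (Zm00001d017420), were tested on genomic DNA from leaf of the inbred line B73 at 14 DAG, with 1 library per factor. The submitters describe them as transcription factors downstream of ZmNAC128 and ZmNAC130. The pairs were selected on the measured summit distance alone: CPP2 summits were sorted along each chromosome or contig, and neighbours at these 5 spacings were kept. This gave 2561 pairs, made of 5120 of the 165420 CPP2 peaks, out of 398506 peaks in the 4 lists. Of all adjacent CPP2 peaks, 23383 pairs lay up to 200 bp apart, so that their peaks overlapped, and the 5 spacings held 2561 of these.

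Proteins of the CPP family carry cysteine-rich CXC domains that bind DNA, and relatives in animals and plants are known as regulators of cell division and of reproductive development. DAP-seq reads what such a protein can bind in naked DNA, outside chromatin and outside the tissue where the gene acts. The DNA was the same leaf DNA in all 4 experiments, so no comparison of tissues or conditions is possible. With 1 library per factor, differences could not be set against replicate spread, and no p-values were computed. The intervals cover counting error over pairs only, and pairs that share sequence or neighbourhood are not independent. The number of reads behind a peak is unknown.

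Each spacing stood above the spacings around it by construction, and these counts describe the choice and support nothing. There were 586 pairs at 54 bp, against a mean of 72 per spacing at distances 3 to 12 bp shorter or longer. This is an 8.14-fold excess (95% Poisson interval 7.49 to 8.83). The spacings next to it held fewer pairs, 42 at 53 bp and 182 at 55 bp, and the 182 were still 2.55 times the mean around 55 bp. The other spacings belonged to broader humps. At 125 bp there were 507 pairs and at 126 bp 495, and just outside the choice 124 bp held 448 and 127 bp held 395. Taken as 1 hump, 125 and 126 bp held 3.62 times the surrounding mean (3.40 to 3.86). At 154 bp there were 454 pairs and at 155 bp 519, with 420 just outside at 153 bp and 395 at 156 bp. As 1 hump, 154 and 155 bp held 3.44 times the surrounding mean (3.22 to 3.66). Of 986 spacings from 15 to 1000 bp, 37 (3.75%) passed the rule for a preferred spacing, which asks for at least 20 pairs and more than 2 times and 4 Poisson standard deviations above the surrounding mean. All 5 spacings are among these 37, as are 45, 55, 64, 68, 87 and 106 bp, among others. The surrounding spacings are therefore not featureless: those around 54 bp ran from 25 pairs to 264 pairs.

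**Figure D1:**
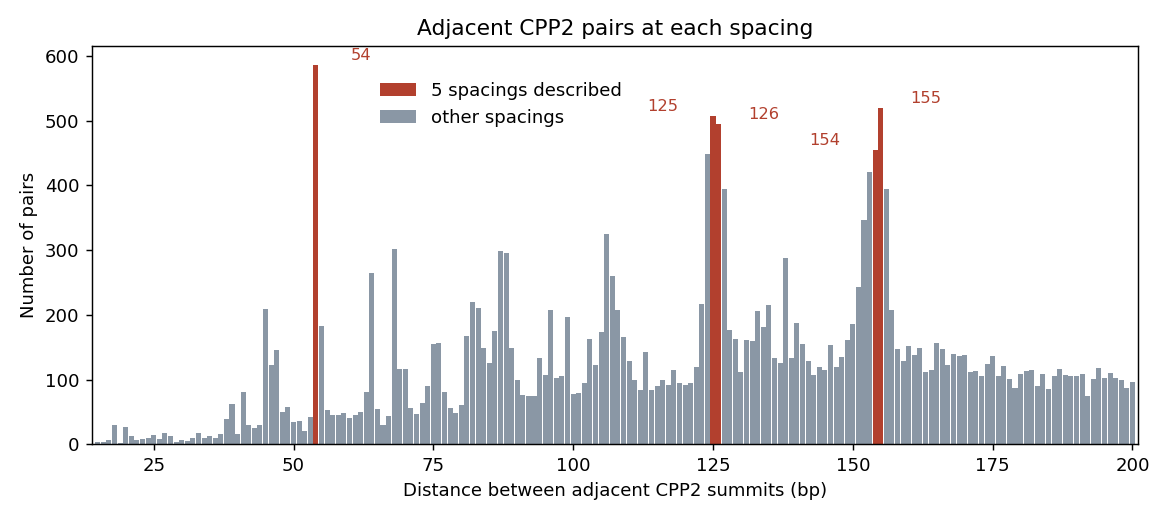
Number of adjacent CPP2 pairs (vertical axis) at each distance between their summits in bp (horizontal axis), up to 200 bp. The 5 described spacings are red, with 586 pairs at 54 bp standing alone and 125 to 126 bp and 154 to 155 bp at the top of humps several bp wide.

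The strength of the paired peaks was taken from the authors' own signal per peak; its scale is unstated, and it was compared within the CPP2 list only. Pairs at 54 bp were weaker than pairs at the spacings around them, and pairs at the other 4 spacings were stronger. The median signal of both peaks was 46.25 at 54 bp (95% order-statistic interval 43.7 to 48.7, n = 586 pairs), against 53.7 (51.2 to 55.7, n = 1440) around it. It was 59.75 (57.4 to 62.8, n = 507) at 125 bp against 44.7 (43.3 to 45.9, n = 2653). It was 63.05 (59.8 to 65.4, n = 495) at 126 bp against 45.4 (44.0 to 46.6, n = 2838). The 154 bp pairs had a median of 61.1 (57.6 to 63.7, n = 454) against 45.7 (44.4 to 46.8, n = 2916). The 155 bp pairs had 60 (56.4 to 63.7, n = 519) against 46.7 (45.7 to 48.0, n = 3049). For comparison, the median over all CPP2 peaks was 41 and over CPP2 peaks with no other within 1 kb it was 39. The ratio to the surrounding median was 0.861 at 54 bp, 1.38 at 125 and 126 bp together and 1.32 at 154 and 155 bp together. When pairs were rebuilt from the stronger 50% of the CPP2 list, a step that removes weak peaks from both sides, the last 2 ratios fell to 1.03 (0.995 to 1.06) and 1.06 (1.01 to 1.12).

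At 125 and 126 bp the weaker peak of a pair differed more from its surroundings than the stronger one did. The weaker peak had a median of 40.2 and 43.9, against 28.8 and 28.9 at the spacings around them, and the stronger peak 81.7 and 86.8, against 70.8 and 72.7. At 154 and 155 bp the weaker peak had a median of 37.3 and 38.0, against 28.65 and 29.8. At 54 bp it was 31.4 against 35.3. The stronger peak had a median of 64.75 at 54 bp against 81.15, and of 91.2 and 91.4 at 154 and 155 bp against 71.8 and 72.6. Both peaks exceeded the list median in 32.1% of 54 bp pairs and 39.2% of those around them. At 126 bp this was so in 273 of 495 pairs (55.2%), against 27.4% around it, and at 125 bp in 48.7% against 27.0%. At 154 bp the share was 43.4% against 27.5%, and at 155 bp 45.7% against 29.4%. The range within a class was wide: single peaks ran from 13.5 to 386 at 54 bp, from 13 to 489.8 at 126 bp and from 13.2 to 418.4 at 155 bp.

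**Figure D2:**
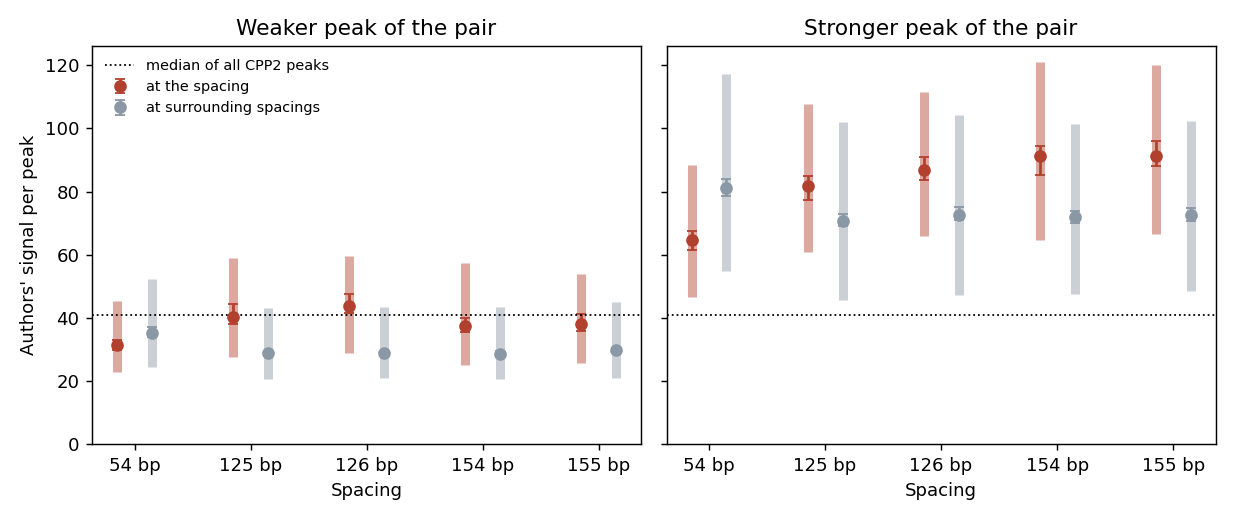
Authors' signal per peak (vertical axis, unstated scale) of the weaker and the stronger peak of each pair, for the 5 spacings (red) and the spacings 3 to 12 bp off (grey). Points are medians with 95% order-statistic intervals, pale bars span the quartiles, and the dotted line is the median of all CPP2 peaks. The red points lie below the grey at 54 bp and above them at the other 4 spacings.

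The peaks of a pair were unequal, and neither side was favoured. The stronger peak was to the right in 296 of 586 pairs at 54 bp and to the left in 288. At 125 bp the split was 253 to 254, at 126 bp 234 to 260, at 154 bp 223 to 230 and at 155 bp 254 to 265. The median size of the log2 ratio between both peaks was 0.80 at 54 bp (0.74 to 0.90) and 0.80 at 125 bp (0.72 to 0.90), which is a stronger peak about 1.74 and 1.75 times the weaker. At 126 bp it was 0.92 (0.84 to 0.99). It was larger at 154 bp, 1.13 (1.03 to 1.20), and at 155 bp, 1.16 (1.07 to 1.26), where the stronger peak was 2.18 and 2.24 times the weaker. The surrounding spacings gave 0.96 around 54 bp, 1.03 and 1.07 around 125 and 126 bp, and 1.06 and 1.04 around 154 and 155 bp. The 125 and 126 bp pairs were thus more even than the pairs around them, with intervals that did not overlap. At 54 bp (0.90 to 1.03 around it), 154 bp and 155 bp (0.99 to 1.09 around it) the intervals of class and surroundings overlapped. More than a 2-fold difference was seen in 40.6% of 54 bp pairs, 40.04% of 125 bp pairs, 45.3% of 126 bp pairs, 56.6% of 154 bp pairs and 59.3% of 155 bp pairs. Across pairs, the signals of the left and right peaks did not clearly rise together. Spearman's rho ran from -0.21 at 155 bp (n = 519) to 0.03 at 125 bp (n = 507), with both peaks from the same library and neighbouring sequence. It was -0.16 at 126 bp, -0.12 at 154 bp and -0.002 at 54 bp. At the surrounding spacings it ran from -0.094 to -0.068.

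The pairs with the highest signal in their weaker peak are named by position as the deposited list gives it, counted from 1. At 54 bp the leading pair lay on chromosome 1 from 22699447 to 22699701, with signals of 188 to the left and 386 to the right. It was the only one of the 15 named pairs with another factor, C3H23, within 1 kb. The next were on chromosome 1 from 27465100 to 27465354 (137.1 and 188.9) and chromosome 2 from 16182260 to 16182514 (156.9 and 113.1). At 125 bp the leading pair lay on chromosome 3 from 36236579 to 36236904 and its peaks were almost equal, 171.4 and 169.4. So were those of the next, on chromosome 6 from 121554259 to 121554584 (149.1 and 148.9). The third was on chromosome 8 from 161817196 to 161817521 (130.8 and 175.2). At 126 bp the leading pairs were on chromosome 7 from 157471800 to 157472126 (109.9 and 157.1), chromosome 4 from 199906535 to 199906861 (150.5 and 108.6) and chromosome 3 from 19936719 to 19937045 (106.7 and 108.3). The pair on chromosome 4 was the only one of the 15 with a further CPP2 peak within 1 kb, 134 bp away. At 154 bp they were on chromosome 2 from 150563640 to 150563994 (201.9 and 151.1), chromosome 4 from 59454185 to 59454539 (136.9 and 207.1) and chromosome 7 from 40866155 to 40866509 (149.4 and 133.6). At 155 bp they were on chromosome 6 from 108369722 to 108370077 (124.1 and 171.9), chromosome 3 from 223223713 to 223224068 (186.1 and 112.9) and chromosome 6 from 99145613 to 99145968 (125.1 and 111.9). The peaks named here all ranked within the top 10.7% of the CPP2 list by signal.

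Most pairs stood alone, and the 54 bp pairs did so most often. A group is taken here as a run of CPP2 peaks in which neighbours lie within 1 kb. Of the 586 pairs at 54 bp, 567 (96.8%) were a group of 2 by themselves, and only 19 (3.24%, Wilson interval 2.09 to 5.01%) had a further CPP2 peak within 1 kb. Around 54 bp this share was 25.6% (23.4 to 27.9%). At 154 bp it was 13% (10.2 to 16.4%) against 21.5% (20.1 to 23.1%), and at 155 bp 13.9% (11.2 to 17.1%) against 20.4% (19.01 to 21.9%). At 125 bp it was 17.0% (13.9 to 20.5%) against 21.9% (20.3 to 23.5%), and at 126 bp 22.2% (18.8 to 26.1%) against 20.5% (19.03 to 22%), and in both the intervals overlapped. The 125 and 126 bp pairs together had 0.949 times the surrounding share, but 0.368 times it when only the stronger 50% of the list was used. Within 500 bp it was 1.06 times (0.923 to 1.21), so the side of 1 on which it lay depended on the setting. The nearest further CPP2 peak lay a median of 8.49 kb from a 54 bp pair (quartiles 4.58 and 13.9 kb), against 4.41 kb around it. The medians were 4.81 kb at 125 bp, 4.94 kb at 126 bp, 7.05 kb at 154 bp and 6.11 kb at 155 bp, against 4.32 to 4.48 kb around them.

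Where a further peak did stand within 1 kb, it was usually close. Over the 5 spacings 346 pairs had such a peak, on 355 sides, and 272 of the 355 next spacings (76.6%) were 200 bp or less. By class the share was 78.9% at 54 bp against 75.4% around it, 76.8% at 125 and 126 bp against 58.9%, and 75.9% at 154 and 155 bp against 53.5%. After a 54 bp pair the most frequent next spacing was 84 bp, found 5 times among 19, and every other was found once. At 125 bp it was 87 bp (7 of 89 next spacings), followed by 64 bp (4). At 126 bp it was 76 bp (10 of 114), followed by 64 bp (8). At 155 bp it was 87 bp (9 of 72), followed by 64 and 88 bp (5 each), and at 154 bp 87, 88 and 90 bp were found 4 times each among 61. Next spacings that were themselves preferred made up 36.1% at 155 bp, against 17.7% around it, 24.6% at 154 bp against 16.8%, and 21.3% and 21.1% at 125 and 126 bp against 17.9% and 18.5%. At 54 bp the order was the other way, with 2 of 19 (10.5%) against 25.1%. These shares were not set against the share of preferred spacings over all adjacent CPP2 pairs. Many preferred spacings are 200 bp or less, and next spacings of that length were also more frequent at 125, 126, 154 and 155 bp than around them. The shares are therefore not read as a trait of the pairs. Over all 5 classes the 87 bp step lay to the right of the pair in 22 cases and to the left in 2. The 64 bp step lay to the left in 14 and to the right in 7. This handedness was seen after the values were known and was not tested. Around 125 and 126 bp the 87 bp step also lay more often to the right, in 10 cases against 3, and around 154 and 155 bp it lay to the left in 12 and to the right in 9.

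Where a further peak stood on 1 side, the pair's peak facing it was mostly the stronger of the pair. In the 337 pairs with a further peak on 1 side only, the pair's peak facing it had a median signal of 93.5, the other peak of the pair 37.3, and the facing peak was the stronger in 293. The further peaks themselves had a median of 28.6. The same order was seen at the surrounding spacings: around 125 and 126 bp the facing peak had a median of 84.6 and was the stronger in 448 of 539 pairs. Members rarely joined members. Only 4 groups held more than 1 pair of the 5 classes, each with 2 of them, and 2 peaks served in 2 pairs. On chromosome 10 from 75453180 to 75453659 a 125 bp step was followed by one of 154 bp, with signals of 19.8, 122.8 and 62.3. On chromosome 3 from 115331871 to 115332351 a 126 bp step was followed by one of 154 bp, with signals of 30.8, 132.9 and 34.3. On chromosome 2 from 72610408 to 72612012, a run of 6 peaks held a 154 bp and a 155 bp pair, and on chromosome 8 from 88206926 to 88208320, a run of 4 held a 125 bp and a 155 bp pair.

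The other factors were rarely found beside these pairs. C3H23 belongs by its name to the CCCH zinc finger proteins, OBF4 to the ocs-element binding bZIP factors and THX20 to the trihelix factors. Any of them had a summit within 1 kb of either CPP2 summit in 175 of the 2561 pairs, 6.83% (5.92 to 7.88%). The same share was 18.8% (18.3 to 19.3%) over all adjacent CPP2 pairs up to 200 bp apart. It was 26.1% (25.8 to 26.3%) over all CPP2 peaks, each taken by itself and paired ones included. The 54 bp pairs were the emptiest: 15 of 586 (2.56%, 1.56 to 4.18%) had any other factor nearby, against 20.4% (18.4 to 22.6%) around 54 bp. At 125 bp it was 9.27% (7.04 to 12.1%) against 23.03%, at 126 bp 8.08% (5.99 to 10.8%) against 21.99%, at 154 bp 8.15% (5.97 to 11%) against 24.7% and at 155 bp 6.94% (5.05 to 9.45%) against 23.2%. In all 5 classes the interval lay below that of the surroundings.

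C3H23 was within 1 kb of 11 pairs (1.88%) at 54 bp, against 9.51% around it. At 125 bp it was near 16 pairs (3.16%), at 126 bp near 24 (4.85%), at 154 bp near 26 (5.73%) and at 155 bp near 18 (3.47%), against 13.3 to 15.7% at the surrounding spacings. OBF4 was within 1 kb of 14 of all 2561 pairs (0.547%, 0.326 to 0.916%), against 3.25% (3.17 to 3.34%) of all CPP2 peaks. Only 1 of the 14 had an overlapping OBF4 peak. At 54 bp it was near 2 pairs (0.341%), against 7.50% (6.25 to 8.98%) around it. That surrounding share depended on the spacings taken, with 2.82% (2.08 to 3.82%) at spacings 13 to 22 bp off and 4.99% (3.70 to 6.70%) with other preferred spacings left out. THX20 was within 1 kb of 4 pairs (0.683%, 0.266 to 1.74%) at 54 bp, against 7.08%. It was near 3.30 to 3.66% of pairs at 126, 154 and 155 bp, against 9.28 to 9.73%. The 125 bp class had the highest share, with THX20 near 36 of 507 pairs (7.10%, 5.17 to 9.67%), an interval that overlaps that of its surroundings (10.4%, 9.26 to 11.6%). It also overlaps those at 126, 154 and 155 bp, whose upper ends were 5.43, 5.38 and 5.65%. The share at 125 bp was 0.685 times the surrounding share within 1 kb, but 0.295 times (0.143 to 0.604) within 500 bp.

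For the 54 bp pairs the gap to the surroundings was smaller, as a ratio, over wider distances. The nearest THX20 summit lay a median of 12.4 kb from a 54 bp pair against 10.9 kb around it, and the nearest C3H23 summit 14.5 kb against 11.1 kb. The nearest OBF4 summit lay 16.2 kb away against 15.5 kb, so the medians differed little for OBF4. The share of 54 bp pairs with any other factor was 0.125 times the surrounding share within 1 kb and 0.349 times within 2 kb. From 1 to 2 kb it rose from 2.56 to 10.4%, and the surrounding share from 20.4 to 29.9%. Both the medians and the 2 kb share include the first 1 kb, so they do not show how empty the stretch beyond it was. Restricting pairs to the stronger 50% of the CPP2 list widened the gap at 125 and 126 bp, from 0.39 to 0.132 times the surrounding share. Signal was not matched between the classes and their surroundings in the main values. Among pairs whose weaker peak had a signal of 30 to 60, a restriction chosen after seeing the data, the ratio at 125 and 126 bp was 0.199.

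**Figure D3:**
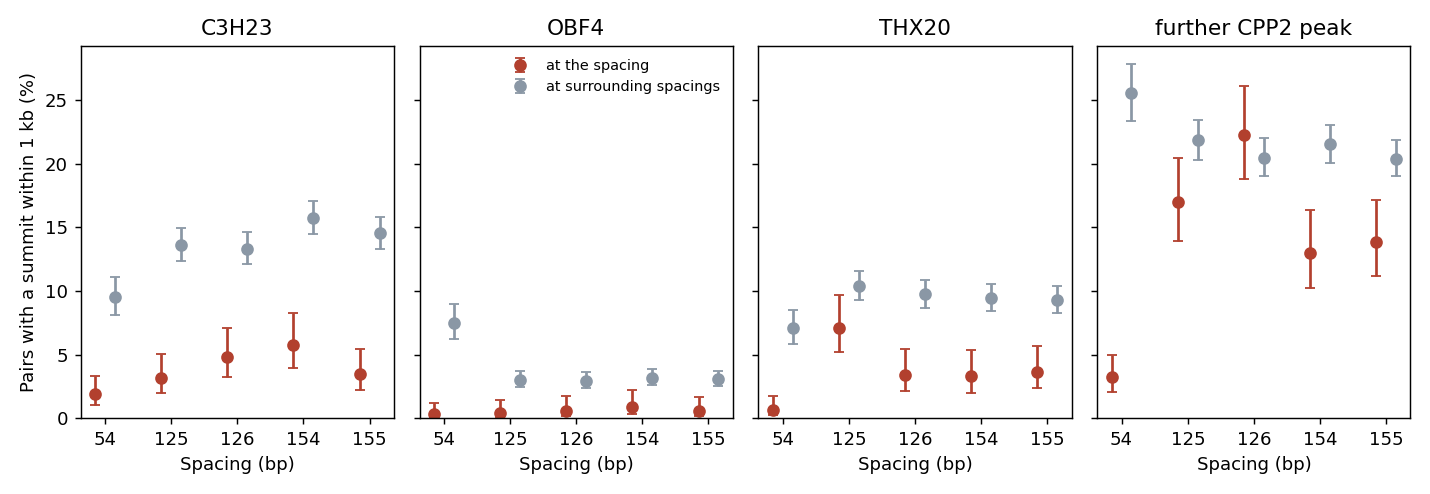
Percent of pairs (vertical axis) with a C3H23, OBF4 or THX20 summit, or a further CPP2 peak, within 1 kb, for each spacing in bp (horizontal axis). Red points are the pairs at the spacing, grey points the pairs 3 to 12 bp off, and bars are 95% Wilson intervals. Red lies below grey throughout except for further CPP2 peaks at 126 bp, where 22.2% stands against 20.5%, and it is lowest at 54 bp.

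Some of the THX20 summits near the 125 bp pairs, though not most, stood at a nearly fixed distance. Of 48 THX20 summits outside these pairs and within 1 kb, 13 were exactly 969 bp from the nearer CPP2 summit and 6 were 968 bp from it. These 19 pairs are among the 36 with THX20 nearby and make up 3.75% of all 507. They lay on 7 chromosomes, with THX20 to the left of 6 pairs and to the right of 13. The neighbouring spacing of 124 bp, which is outside the choice, held 18 such pairs of 448 (4.02%), 10 with THX20 to the left. None was found among the 495 pairs at 126 bp, which allows a share of up to 0.606%, or among the 395 at 127 bp, which allows up to 0.759%. The CPP2 hump at 124 to 127 bp was thus not uniform in its THX20 neighbours. In the 19 pairs the CPP2 peak farther from THX20 had the higher signal in 15, with a median of 41.2 against 26.7 for the nearer peak. Their THX20 peaks had a median signal of 86.0, from 17.9 to 197, against 32 for the whole THX20 list. Of these 19 pairs only 2 were left in the stronger 50% of the CPP2 list. This arrangement was noticed in these data and was not tested. Examples with high THX20 signal are the pairs on chromosome 2 from 78769667 to 78769992 (THX20 signal 197, to the left) and on chromosome 5 from 161167630 to 161167955 (146.2, to the right). No distance of C3H23 or OBF4 from the pairs of a single class was met more than once, and none of THX20 from another class more than 2 times.

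**Figure D4:**
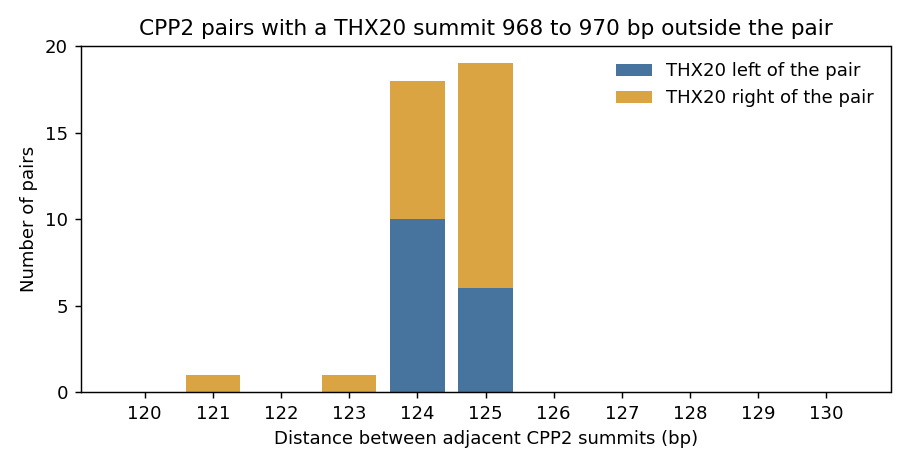
Number of adjacent CPP2 pairs (vertical axis) that have a THX20 summit 968 to 970 bp outside the pair, for CPP2 spacings from 120 to 130 bp (horizontal axis). Colours give the side of the pair on which THX20 lies. Such pairs number 18 at 124 bp and 19 at 125 bp, and 0 at 126 bp and above.

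The pairs were scattered over the whole genome. Every class had members on all 10 chromosomes, and 20 pairs lay on 14 contigs not placed on a chromosome. Density over the 10 chromosomes was 0.277 pairs per Mb at 54 bp, 0.236 at 125 bp, 0.234 at 126 bp, 0.215 at 154 bp and 0.245 at 155 bp. At 54 bp chromosome 1 was the densest, with 105 pairs (0.342 per Mb, Poisson interval 0.280 to 0.414), and chromosome 4 the sparsest, with 51 (0.206 per Mb, 0.154 to 0.272). At 154 bp chromosome 3 held 66 pairs (0.280 per Mb) and chromosome 6 held 26 (0.149 per Mb), a ratio of 1.87. The ratio of densest to sparsest was 1.66 at 54 bp, 1.61 at 125 bp, 1.64 at 126 bp and 1.40 at 155 bp. At the surrounding spacings, with more pairs, the ratio was 1.38 around 54 bp, 1.24 around 125 bp and 1.22 around 126 bp. It was 1.33 around 154 bp and 1.37 around 155 bp. The corresponding ratio over all CPP2 peaks was 1.06, but the classes are small and their chromosome counts carry wide intervals. Within chromosomes most pairs lay far from another pair of their class. The 586 pairs at 54 bp fell in 508 bins of 1 Mb, with at most 3 in a bin. Only 2.74% of them had another 54 bp pair within 20 kb, and the share was 3.41, 2.85, 2.65 and 0.777% at 125, 126, 154 and 155 bp.

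Along the chromosome arms the 154 and 155 bp pairs ran opposite to CPP2 peaks as a whole. All CPP2 peaks were denser in the central 20% of chromosomes than in the outermost 10% at either end, with a ratio of 1.18 (1.16 to 1.19). The 154 and 155 bp pairs together had 155 pairs in the centre and 217 at the ends, a ratio of 0.714 (0.577 to 0.882), against 1.25 (1.11 to 1.42) at the spacings around them. The centre was the denser zone on 3 of 10 chromosomes for these pairs and on 7 of 10 for those around them. Taken singly, 154 bp had a ratio of 0.642 (0.466 to 0.878) and 155 bp one of 0.784 (0.585 to 1.05). The 54 bp pairs had 96 pairs in the centre and 113 at the ends, a ratio of 0.85 (0.640 to 1.13). Their density peaked between 10 and 20% of chromosome length from an end, with 156 pairs and 0.370 per Mb. This was 1.34 (1.13 to 1.56) times their mean over the 5 zones. The pairs around 54 bp were also densest there, with 328 pairs and 1.16 (1.04 to 1.29) times their mean, and the intervals overlapped. The 125 and 126 bp pairs had a ratio of 1.23 (0.992 to 1.53), within reach of that of all CPP2 peaks. The surroundings had ratios of 1.04 (0.875 to 1.23) for 54 bp and 1.03 (0.915 to 1.17) for 125 and 126 bp, and the intervals of class and surroundings overlapped. For 54 bp the ratio was below 1 under other settings, though some intervals included 1. It was 0.717 (0.593 to 0.866) for the central 40% over the outer 20% at either end. That interval overlapped the one around 54 bp, 0.879 (0.781 to 0.989). With spacings up to 1 bp off, the ratio was 0.782 (0.616 to 0.99), against 1.04 (0.875 to 1.23) around them. In the stronger 50% of the list it was 0.941 (0.562 to 1.57). Without further CPP2 peaks within 1 kb it was 0.821 (0.617 to 1.09).

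**Figure D5:**
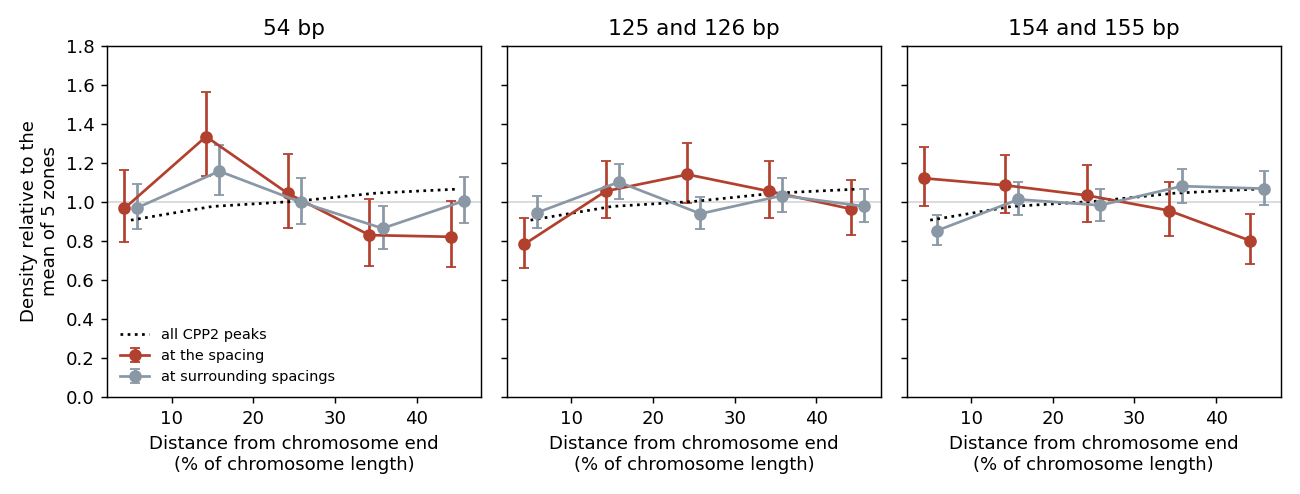
Density of pairs relative to the mean of 5 zones (vertical axis) against distance from the nearer chromosome end in percent of chromosome length (horizontal axis), for 54 bp, 125 and 126 bp and 154 and 155 bp. Red is the class, grey the surrounding spacings, the dotted line all CPP2 peaks, and bars are 95% Poisson intervals. The 154 and 155 bp pairs decline from the ends to the centre, where 0.801 of the mean density was found.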

How the data were processed

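DAP-seq peaks of 4 maize factors were used, 1 library each, with samples grouped by title. The factor names that the deposited lists carry in their own names differ from the sample titles, and the titles were followed. Which protein a list belongs to therefore rests on the titles. Per the submitters' processing notes, Trimmomatic 0.39 and Bowtie2 2.4.1 were used. For the peak caller, the control and the build, the answer is not given in the sources used here. File names point to removal of blacklisted regions. The deposited lists have no header. In the layout of narrowPeak, each peak is 201 bp wide with the summit 100 bp from its start. The authors' signal per peak is never negative and of unstated scale. The deposited −log10 p-value served as an alternative measure of strength, and the lowest deposited −log10 q-value is 3. The score was not used. Depth is unknown, so precision is given as counting intervals over pairs (95%; Wilson for shares, Poisson for counts, order statistics for medians, exact binomial for the ratio of densities). Chromosome length was taken up to the last peak of any list.

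The steps used Python 3.11.15, numpy 2.4.6, pandas 2.3.3, scipy 1.17.1 and matplotlib 3.10.9, and were checked on simulated data. Surrounding pairs are adjacent CPP2 pairs 3 to 12 bp off a spacing (20 spacings); for joint values they are taken from the outer edges of 125 and 126 or of 154 and 155 bp. In each class the 3 pairs with the highest signal in the weaker peak are named, with the groups holding the most pairs (4 tied). The single pairs with THX20 were picked after their values were seen. Members, lists and comparisons were chosen with earlier results of these data known. No genome of the lists' build was used, so no sequence, gene or repeat is assigned to a pair.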

Additional observations from a re-analysis of the deposited data

Results flagged for a closer look

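Pairs on contigs that are not placed on a chromosome were counted in their spacing classes but lie outside the comparison along chromosomes. They numbered 20 over the 5 spacings, on 14 contigs, with 9 of them at 125 bp, 2 at 54 bp, 3 at 126 bp, 2 at 154 bp and 4 at 155 bp.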

How the results depend on the processing

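No paired analysis was possible because only 1 library exists here per factor, and for that reason leaving out a replicate was not run either. Most values are ratios to the surrounding spacings, for 54 bp, for 125 and 126 bp and for 154 and 155 bp. The density ratio of centre over ends is instead that of the class itself, and the pairs with THX20 at 969 bp are a count. Of 116 values under 13 alternatives, 84 stayed within the counting interval of the main value, and 32 moved beyond it. Some of the 84 could not move. No preferred spacing lay around 125 and 126 bp or 154 and 155 bp, so leaving these out changed nothing there. The density ratio makes no use of the surroundings, so taking them 13 to 22 bp off left it unchanged. The excess of pairs, raised by the choice of spacings itself, is also among the 116. The share of 125 and 126 bp pairs with a further CPP2 peak, 0.949 (0.835 to 1.07) in the main setting, came out above 1 in 2 settings, 1.01 with spacings up to 1 bp off and 1.06 within 500 bp. None of the other ratios crossed 1. The cause of these moves was not tested. In the stronger 50% of the list the excess of pairs was 6.62, 7.18 and 5.51, the signal ratio 0.924, 1.03 and 1.06, and the share with a further CPP2 peak 0.212, 0.368 and 0.240. There the share with another factor was 0.132 at 125 and 126 bp and 0.228 at 154 and 155 bp, the inequality of 154 and 155 bp pairs 1.23, and pairs with THX20 at 969 bp numbered 2. With spacings up to 1 bp off, the excess was 3.75, 3.34 and 3.16 and those THX20 pairs numbered 37. Surroundings 13 to 22 bp off gave, for 125 and 126 bp, an excess of 3.26, a signal ratio of 1.26 and a further-peak share of 0.813. Without further CPP2 peaks the signal ratio was 1.45 and 1.41 at the longer spacings, and the other-factor share 0.239 at 154 and 155 bp. By −log10 p the strength ratio was 0.809 at 54 bp and 1.45 at 125 and 126 bp. The other-factor share was 0.349, 0.514 and 0.394 within 2 kb, and 0.298 at 125 and 126 bp within 500 bp. Of the settings chosen after seeing the data, leaving out other preferred spacings gave an excess of 12.1 at 54 bp; a weaker peak of 30 to 60 gave other-factor and further-peak shares of 0.199 (125 and 126 bp) and 0.449 (154 and 155 bp).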
